A study of Mus musculus with 6 samples.

Results

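The genes of the PGC-1 axis of mitochondrial biogenesis were followed in RNA-sequencing of cochlear tissue from young and old C57BL/6 mice. The 10 genes were chosen by name, as 10 of the 25419 genes to which the transcripts of the table were assigned, and comprise the coactivators Ppargc1a, Ppargc1b and Pprc1, the nuclear factors Esrra, Nrf1 and Gabpa that work with them, and Tfam, Tfb2m, Polg and Polrmt, which transcribe, package or copy mitochondrial DNA (mtDNA). The young group held 3 samples from mice labelled 1 month old and the old group held 3 samples from mice labelled 12 months old, all C57BL/6 mice with no treatment or altered gene in the labels, a strain with early-onset age-related hearing loss (AHL). Each sample was a mixture of tissue from 3 mice, and the tissue, by the labels, was cochlear basilar membrane. The values are FPKM (fragments scaled for transcript length and library size), which take account of transcript length. The level of a gene is the sum of the FPKM of its transcripts. Short transcripts can weigh heavily in this sum, so that comparisons between genes depend on which transcripts are summed. Whether the mRNA of these genes differs between the ages is the question addressed, since the study measured PGC-1α and TFAM as proteins in cochleae of both ages.

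PGC-1 coactivators bind no DNA themselves. They are recruited by transcription factors such as the estrogen-related receptor ERRα (encoded by Esrra), NRF1 and GABP (also called NRF2, with GABPα as its DNA-binding subunit), and so raise the expression of nuclear genes for mitochondrial proteins. Among the products of these genes are TFAM, TFB2M and POLRMT, which together start transcription of mtDNA, while POLG is the catalytic subunit of the polymerase that replicates it. Hair cells, spiral ganglion neurons and the stria vascularis of the cochlea have a high demand for mitochondrial energy.

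The start regions of 4 of these genes are shown because they carry, or lack, a form of the letters that NRF1 and GABP are known to bind. The windows are RefSeq promoters of build GRCm38.p6, from 250 bases before to 50 bases after the annotated start, printed on the strand of the gene, and 9 of the 10 genes had such a window. Capitals mark matches to GCGCANGCG (NRF1) or CCGGAAG (GABP) on either strand. Only these exact letters were searched for, and lowercase stretches were not checked for variants of them. All of these genes lie on the minus strand, Ppargc1a at chr5:51567676-51567975, Tfam at chr10:71237995-71238294, Tfb2m at chr1:179546227-179546526 and Polrmt at chr10:79746532-79746831.
Ppargc1a: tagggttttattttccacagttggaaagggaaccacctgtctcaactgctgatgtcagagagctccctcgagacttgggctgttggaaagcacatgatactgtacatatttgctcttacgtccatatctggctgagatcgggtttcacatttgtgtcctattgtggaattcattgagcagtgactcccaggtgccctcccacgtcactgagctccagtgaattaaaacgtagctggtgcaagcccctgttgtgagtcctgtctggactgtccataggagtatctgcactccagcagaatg
Tfam: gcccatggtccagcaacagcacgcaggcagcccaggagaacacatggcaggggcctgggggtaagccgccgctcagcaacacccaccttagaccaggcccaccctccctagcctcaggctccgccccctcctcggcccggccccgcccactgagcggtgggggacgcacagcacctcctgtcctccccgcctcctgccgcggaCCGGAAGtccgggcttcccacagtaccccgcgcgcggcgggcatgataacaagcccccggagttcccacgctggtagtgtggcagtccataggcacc
Tfb2m: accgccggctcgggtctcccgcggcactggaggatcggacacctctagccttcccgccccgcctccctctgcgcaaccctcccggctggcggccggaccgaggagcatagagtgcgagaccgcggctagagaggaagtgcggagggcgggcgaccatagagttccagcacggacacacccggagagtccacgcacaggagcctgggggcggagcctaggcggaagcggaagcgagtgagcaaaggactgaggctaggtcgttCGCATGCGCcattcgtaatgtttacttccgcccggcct
Polrmt: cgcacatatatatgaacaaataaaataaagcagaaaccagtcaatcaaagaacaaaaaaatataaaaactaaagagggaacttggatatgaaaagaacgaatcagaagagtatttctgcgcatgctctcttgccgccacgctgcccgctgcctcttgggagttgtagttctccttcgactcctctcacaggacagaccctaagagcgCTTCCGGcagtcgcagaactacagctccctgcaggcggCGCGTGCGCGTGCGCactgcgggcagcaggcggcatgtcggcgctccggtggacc

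The NRF1 letters were present in the windows of Esrra, Tfb2m and Polrmt and the GABP letters in those of Gabpa, Tfam, Polg and Polrmt. Of all 32851 windows of the same length, 6.25% held the NRF1 letters and 8.86% held the GABP letters. All windows are a background not matched for G and C content. The windows with matches contained 66.0% (Esrra), 59.3% (Gabpa and Polg), 70.3% (Tfam), 67.3% (Tfb2m) and 52.0% (Polrmt) G and C. In Polrmt 2 overlapping NRF1 matches lay across the start, the first of them beginning 5 bases before it, and a GABP match began 43 bases before the start. The GABP match of Tfam began 47 bases before the RefSeq start and the NRF1 match of Tfb2m began at base 13 after it. The transcript Tfam-201 described below is annotated with a start at 71238280, upstream of the GABP match. The letters AAGGTCA (ERR) and TGACGTCA (cyclic AMP response element) were in 0 of the 10 windows of these genes (Nrf1 has 2 windows), against 4.72% and 1.79% of all windows. The Ppargc1a window holds no match to any of the 4 motifs and contains 48.7% G and C, where the median of all windows was 52.7%. It lies at the start of the short upstream transcript described below. The start of the long transcript Ppargc1a-203, at 51553922, had no window and was not searched for these letters.

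Between old and young mice, 0 of the 10 genes passed the threshold. Old minus young differences were tested for 19465 genes with a mean of at least 0.1 FPKM, on log2(FPKM + 0.1) with limma and a Benjamini-Hochberg adjustment over all genes, at a threshold of 0.05. Of all genes tested, 1840 passed, which is 9.45%, with 1099 higher (5.65%) and 741 lower (3.81%) with age. Without adjustment, 1 of the 10 genes had p below 0.05, Esrra, against 27.8% of all genes, and Esrra was also the only gene of the 10 whose groups did not overlap, against 33.7% of all genes. The median log2 difference was -0.05 over the 10 genes, with 3 above 0 and 7 below, and 0.0088 over all genes tested. The counts of genes past the threshold among all genes depended on single samples. Leaving out young replicate 1, 2 or 3 gave 741, 332 and 1771, and leaving out old replicate 1, 2 or 3 gave 397, 62 and 364. The count was 0 of the 10 genes with every one of these samples left out.

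**Figure D1:**
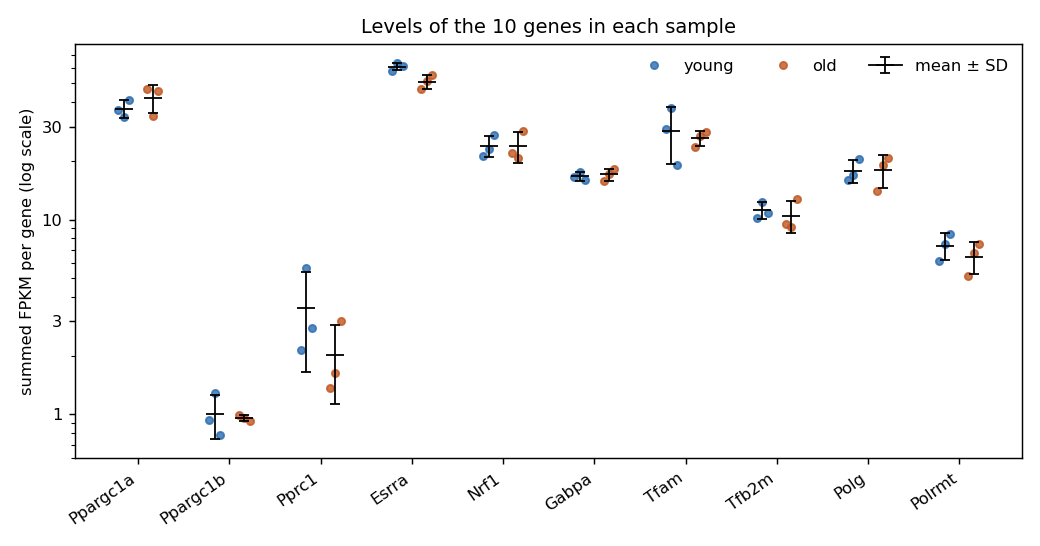
Summed FPKM of each of the 10 genes (log scale) in the 3 young (blue) and 3 old (orange) samples, with the mean and SD of each group as black bars. Levels run from about 1 FPKM for Ppargc1b to 61.0 FPKM for Esrra in young mice, and the points of old and young mice overlap for every gene other than Esrra.

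The sequencing depth was not given by the table itself. Evenly spaced steps fitted to the FPKM values of weakly expressed transcripts put it at 12560000 to 15680000 fragments per sample. Any scaling between libraries, which is not known, would be part of this estimate. In each sample 92.7 to 94.5% of the values used lay within 0.1 of a whole number of steps, where 20% would by chance. The number of fragments behind a gene was estimated from this depth and carries, besides counting error, that of dividing fragments between transcripts. It leaves out the shortest transcripts, among them Pprc1-208. It was lowest for Ppargc1b (33 to 60 per sample) and Pprc1 (70 to 136), and highest for Esrra (1144 to 1714), Ppargc1a (1263 to 1650) and Polg (943 to 1380).

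Ppargc1a encodes PGC-1α, the member that is induced by cold, exercise and fasting in tissues rich in mitochondria. In GRCm38 it spans chromosome 5 from 51454250 to 51567726 on the minus strand. Its summed level was 36.6, 33.6 and 41.2 FPKM in young replicates 1, 2 and 3, and 46.5, 34.0 and 45.8 FPKM in old replicates 1, 2 and 3. Old replicates 1 and 3 lay above all young samples, but old replicate 2 lay among the lowest, so that the groups overlapped. The means were 37.1 ± 3.84 FPKM (SD, n = 3) in the young and 42.1 ± 7.01 FPKM (SD, n = 3) in the old samples. The log2 difference was 0.17 (SE 0.14, limma adjusted p = 0.461), with a 95% interval from -0.15 to 0.49.

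The sum combines transcripts whose differences had opposite signs. Of 5 annotated Ppargc1a transcripts the table lists 3. Ppargc1a-203 (ENSMUST00000132734) has 13 exons and 6464 nt and codes for 797 amino acids. Ppargc1a-202 (ENSMUST00000127135) is annotated with 4 exons and 488 nt and with an incomplete 3′ end. It starts 13804 nt upstream of Ppargc1a-203, at the start region printed above, and shares 391 of its 488 nt with it, so that 97 nt are its own. Ppargc1a-205 (ENSMUST00000196968) has 11 exons and 2754 nt, all of them within the exons of Ppargc1a-203, and codes for 696 amino acids.

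The long transcript Ppargc1a-203 was at 17.8, 18.9 and 15.5 FPKM in young replicates 1, 2 and 3, against 17.5, 13.6 and 13.6 FPKM in old replicates 1, 2 and 3. Old replicates 2 and 3 were the lowest of the 6, and old replicate 1 was among the young samples. The log2 difference was -0.23 (SE 0.14, limma adjusted p = 0.441 over all transcripts tested), with a 95% interval from -0.56 to 0.10. The short transcript Ppargc1a-202 was at 18.8, 14.7 and 25.7 FPKM in the young samples, against 29.0, 16.8 and 30.1 FPKM in old mice. It was highest in old replicates 1 and 3 and lowest in young replicate 2 and old replicate 2, and its log2 difference was 0.35 (SE 0.28, limma adjusted p = 0.598). Ppargc1a-205 was at 0.00142 FPKM or less in the young samples and old replicate 1, but 3.71 FPKM in old replicate 2 and 2.15 FPKM in old replicate 3. Among the old samples, then, Ppargc1a-205 reached 2.15 FPKM or more only where Ppargc1a-203 was lowest, and since all of Ppargc1a-205 lies within Ppargc1a-203 their fragments are divided by estimation.

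**Figure D2:**
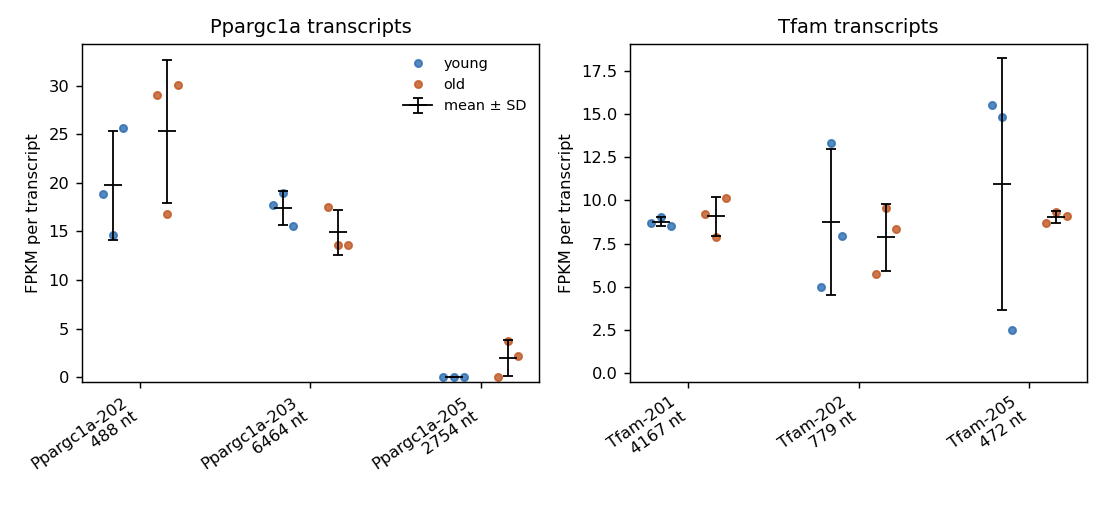
FPKM of single Ppargc1a transcripts (left) and Tfam transcripts (right) in the 3 young (blue) and 3 old (orange) samples, with means and SD as black bars and the transcript length under each name. The short transcripts Ppargc1a-202 and Tfam-205 spread widely between samples of 1 age, while Tfam-201 stayed between 7.91 and 10.1 FPKM in all 6 samples.

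The short transcript weighs differently by FPKM and by fragments. Ppargc1a-202 held 53.1% of the summed mean FPKM of the gene in young mice and 60.0% in old mice. In estimated fragments it held 2.5 to 6.0% per sample, 41.9 to 76.8 fragments against 1139 to 1608 for Ppargc1a-203, with the length reduction found for long transcripts carried over to a short one. When only transcripts of at least 1000 nt were summed, a choice made after the values were seen, the Ppargc1a means were 17.4 ± 1.73 FPKM in the young samples and 16.8 ± 0.970 FPKM in old mice, and the log2 difference was -0.04 (95% interval from -0.26 to 0.18, limma adjusted p = 0.787). In another sum each transcript was weighted by its length less 280 nt (at least 50 nt), which estimates the share of all fragments on the gene. The log2 difference was then -0.13 (95% interval from -0.34 to 0.08, limma adjusted p = 0.382). The sign of the Ppargc1a difference thus depended on how its transcripts were combined, and the difference did not pass the threshold in any of these sums.

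Ppargc1b encodes PGC-1β, which is active in brown fat, heart and osteoclasts, and spans chromosome 18 from 61298136 to 61400431 on the minus strand. It was at 0.937, 1.29 and 0.784 FPKM in young replicates 1, 2 and 3, against 0.990, 0.962 and 0.923 FPKM in old replicates 1, 2 and 3. All old values lay within the range of the young ones, and the log2 difference was -0.03 (SE 0.27, limma adjusted p = 0.952), with a 95% interval from -0.67 to 0.60. Nearly all of this level, 99.7% in young and 100% in old mice, came from Ppargc1b-202. Ppargc1b was the least expressed of the 10 genes in each age group, and its level lay below that of Ppargc1a in every sample.

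Pprc1 encodes PRC, the coactivator of the family that responds to growth signals. It lies on chromosome 19 from 46044886 to 46072915 on the plus strand, where it overlaps the coding gene Ldb1. The summed level was 2.13, 5.66 and 2.79 FPKM in the young samples and 1.37, 1.64 and 3.01 FPKM in old mice. Young replicate 2 stood above the other samples. The log2 difference was -0.74 (SE 0.41, limma adjusted p = 0.291), the farthest from 0 of the 10 genes, with a 95% interval from -1.71 to 0.23. Without young replicate 2 it was -0.35. Of the value of young replicate 2, 71.0% came from Pprc1-208, a transcript of 386 nt with an incomplete 3′ end, which was at 4.02 FPKM there, at 0.302 FPKM in young replicate 3, at 0.120 and 0.638 FPKM in old replicates 1 and 3, at 0.000189 FPKM in young replicate 1 and at 0 in old replicate 2. Over transcripts of at least 1000 nt Pprc1 was at 1.87 ± 0.535 FPKM in the young samples and 1.71 ± 0.585 FPKM in old mice, a log2 difference of -0.14 (95% interval from -0.76 to 0.48, limma adjusted p = 0.757). Among these, Pprc1-203 was at 0.572, 0.936 and 0.902 FPKM in young and 0.735, 1.08 and 0.409 FPKM in old mice, and Pprc1-202 at 0.216, 0.332 and 1.19 FPKM in young and 0.518, 0.299 and 1.33 FPKM in old mice. The order of the samples differed between these transcripts.

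**Figure D3:**
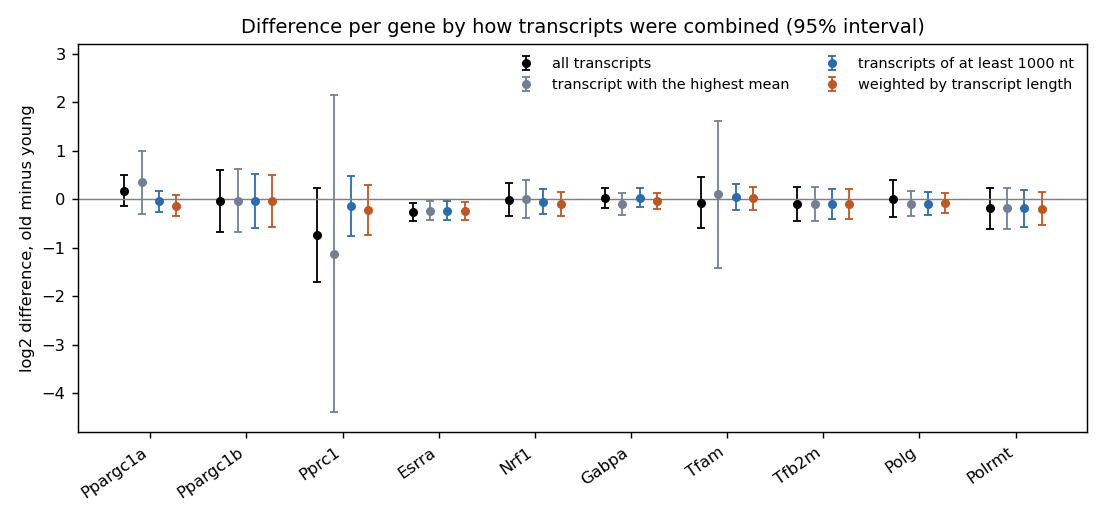
Log2 difference between old and young mice for each of the 10 genes with its 95% interval, from the sum of all transcripts (black), the transcript with the highest mean (grey), transcripts of at least 1000 nt (blue) and a sum weighted by reduced transcript length (orange). The Ppargc1a difference is 0.17 in the first and -0.13 in the last, the interval of Pprc1 narrows when short transcripts are left out, and Esrra stays between -0.26 and -0.23.

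Esrra encodes ERRα, the orphan nuclear receptor through which PGC-1α acts on genes of oxidative metabolism. It lies on chromosome 19 from 6910977 to 6921813 on the minus strand and overlaps the coding gene Trmt112. It was the most abundant of the 10 genes, with 58.1, 63.6 and 61.3 FPKM in young replicates 1, 2 and 3 and 46.6, 51.2 and 55.1 FPKM in old replicates 1, 2 and 3. The 3 old samples lay below the 3 young samples, with means of 61.0 ± 2.75 FPKM (SD, n = 3) in the young and 51.0 ± 4.27 FPKM (SD, n = 3) in the old samples. The log2 difference was -0.26 (SE 0.08), with a 95% interval from -0.45 to -0.07 before adjustment. It did not pass the threshold (limma adjusted p = 0.0871), and over the 20 alternatives the limma adjusted p ranged from 0.0587 to 0.225 with every difference below 0. The exact permutation test gave p = 0.1 (two-sided), which is the smallest value that 3 samples against 3 allow. Groups that do not overlap and are lower in old mice were found for 16.1% of all genes. The main transcript Esrra-201, with 7 exons and 2242 nt, was at 55.5, 63.6 and 60.6 FPKM in young and 46.6, 51.2 and 55.1 FPKM in old mice, and its log2 difference was -0.23 (SE 0.09, limma adjusted p = 0.248 over all transcripts).

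Nrf1 encodes a transcription factor of many housekeeping and mitochondrial genes, and lies on chromosome 6 from 30047988 to 30153458 on the plus strand. It is not the stress factor NRF2 of the gene Nfe2l2. Its level was 21.3, 23.1 and 27.2 FPKM in the young samples and 22.0, 20.7 and 28.6 FPKM in old mice, so that the groups covered nearly the same range. The log2 difference was -0.01 (SE 0.14, limma adjusted p = 0.969), with a 95% interval from -0.35 to 0.33. The table lists 17 Nrf1 transcripts, more than for any other of the 10 genes. The most abundant was Nrf1-210 (3295 nt), at 7.66 ± 0.529 FPKM in young and 7.75 ± 1.63 FPKM in old mice (SD, n = 3), with a log2 difference of -0.0027. Nrf1-216 (503 nt, incomplete 3′ end) was at 5.58, 4.72 and 5.94 FPKM in young and 6.64, 4.90 and 9.66 FPKM in old mice. Nrf1-207 was at 2.05, 2.71 and 3.99 FPKM in young and 2.89, 2.05 and 1.51 FPKM in old mice, and Nrf1-211 at 2.15, 3.39 and 2.71 FPKM in young and 1.74, 2.29 and 1.70 FPKM in old mice. The groups overlapped for each of these 4 transcripts. Nrf1-219, with 10 exons and 1541 nt, was the only Nrf1 transcript whose groups did not overlap, at 0.098, 0.379 and 0 FPKM in young and 0.960, 1.13 and 2.81 FPKM in old mice (unadjusted p = 0.00711, limma adjusted p = 0.123). It is named after its values were seen, and 0 of its 1541 nt belong to it alone among the listed transcripts. Of all transcripts tested, 24.6% had groups that did not overlap.

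Gabpa encodes the DNA-binding subunit of GABP. It lies on chromosome 16 from 84834925 to 84863779 on the plus strand and overlaps the coding gene Atp5j. Its level was 16.6, 17.5 and 15.9 FPKM in young replicates 1, 2 and 3 and 15.9, 17.1 and 18.3 FPKM in old replicates 1, 2 and 3, a log2 difference of 0.03 (SE 0.09, limma adjusted p = 0.846). The 95% interval, from -0.18 to 0.24, was among the narrowest of the 10 genes. Gabpa-201 (4987 nt) was at 14.4, 13.5 and 12.6 FPKM in young and 13.1, 13.0 and 11.6 FPKM in old mice, and Gabpa-202 (2202 nt) at 2.22, 4.03 and 3.27 FPKM in young and 2.78, 4.04 and 6.70 FPKM in old mice. Both code for 454 amino acids and share 2103 of the 2202 nt of the shorter one. The share of Gabpa-201 in the gene was 86.7, 77.0 and 79.4% in young and 82.4, 76.3 and 63.3% in old mice (exact permutation test, two-sided, p = 0.4).

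**Figure D4:**
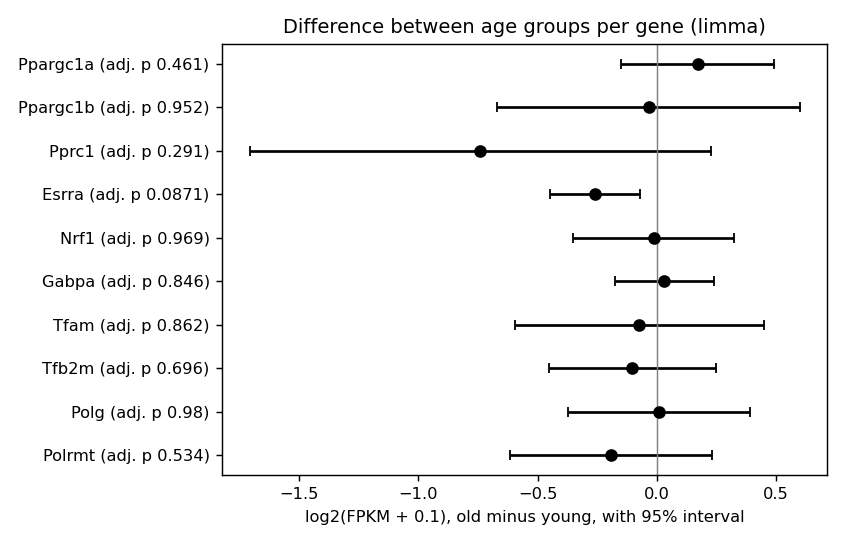
Log2 difference between old and young mice for each of the 10 genes (points) with 95% intervals from limma (bars) and the adjusted p beside each name. The interval of Esrra lies below 0 before adjustment, the other 9 intervals include 0, and those of Pprc1 and Ppargc1b are the widest.

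Tfam encodes the protein that coats mtDNA and bends it at promoters, and lies on chromosome 10 from 71225464 to 71238280 on the minus strand. The summed level was 29.2, 37.2 and 19.0 FPKM in young replicates 1, 2 and 3 and 23.7, 26.8 and 28.0 FPKM in old replicates 1, 2 and 3. The old samples lay inside the range of the young ones, with 28.5 ± 9.13 FPKM (SD, n = 3) in the young and 26.2 ± 2.25 FPKM (SD, n = 3) in the old samples. The log2 difference was -0.07 (SE 0.22, limma adjusted p = 0.862), with a 95% interval from -0.60 to 0.45. Without young replicate 2 it was 0.15, and without young replicate 3 it was -0.34.

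Among the Tfam transcripts the short ones varied most between the young samples. Tfam-205 (472 nt, incomplete 3′ end) was at 15.5, 14.8 and 2.53 FPKM in young replicates 1, 2 and 3, against 8.67, 9.35 and 9.09 FPKM in old mice, and Tfam-202 (779 nt) was at 5.01, 13.3 and 7.95 FPKM in young and 5.76, 9.55 and 8.33 FPKM in old mice. Tfam-201, with 7 exons and 4167 nt, codes for 243 amino acids and held 78.7 to 89.3% of the estimated fragments per sample. It was at 8.72, 9.03 and 8.52 FPKM in young and at 9.23, 7.91 and 10.1 FPKM in old mice, a log2 difference of 0.05 (SE 0.12, limma adjusted p = 0.884 over all transcripts), with a 95% interval from -0.25 to 0.34. Of the 3 Tfam transcripts tested, 0 passed the threshold. Without young replicate 3, Tfam-205 passed and was lower in old mice (log2 difference -0.74, limma adjusted p = 0.0489), a call that rests on leaving out the sample with its lowest value.

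Tfb2m encodes the methyltransferase-related factor that opens mitochondrial promoters. It lies on chromosome 1 from 179528055 to 179546267 on the minus strand, and 1 transcript of 5 annotated is in the table, with 8 exons and 2449 nt. It was at 10.2, 12.4 and 10.9 FPKM in the young samples, against 9.50, 9.14 and 12.7 FPKM in old mice. Old replicates 1 and 2 were the lowest and old replicate 3 the highest of the 6 samples, and the log2 difference was -0.10 (SE 0.15, limma adjusted p = 0.696), with a 95% interval from -0.45 to 0.25. Polrmt, the mitochondrial RNA polymerase, lies on chromosome 10 from 79736123 to 79746581 on the minus strand. It was at 6.14, 7.53 and 8.38 FPKM in young and 5.13, 6.71 and 7.52 FPKM in old mice, a log2 difference of -0.19 (SE 0.18, limma adjusted p = 0.534), with a 95% interval from -0.62 to 0.23. Nearly all of it came from Polrmt-201, and the groups overlapped.

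Polg lies on chromosome 7 from 79446231 to 79466362 on the minus strand and overlaps the coding gene Fanci. Its summed level was 15.9, 17.0 and 20.4 FPKM in young replicates 1, 2 and 3 and 14.1, 19.2 and 20.8 FPKM in old replicates 1, 2 and 3, a log2 difference of 0.0091 (SE 0.16, limma adjusted p = 0.980), with a 95% interval from -0.37 to 0.39. The full-length Polg-201, with 23 exons and 7837 nt, was at 10.2, 12.3 and 11.5 FPKM in young and 9.67, 11.2 and 11.1 FPKM in old mice. The fragmentary Polg-211 was at 4.88, 3.81 and 5.70 FPKM in young and 3.16, 7.32 and 4.56 FPKM in old mice, and Polg-202 at 3.17 FPKM in young replicate 3, at 1.26, 0.119 and 5.07 FPKM in old mice and at 0.000319 FPKM or less in the other young samples. The groups overlapped for each of them.

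For sums over all transcripts, the order of the 10 genes by mean level was the same in young and old mice, with Esrra first, followed by Ppargc1a, Tfam, Nrf1, Polg, Gabpa, Tfb2m, Polrmt, Pprc1 and Ppargc1b. In old mice, Tfam and Nrf1, Nrf1 and Polg, and Polg and Gabpa had overlapping ranges. In young mice, neighbours with overlapping ranges were Ppargc1a and Tfam, Tfam and Nrf1, and Polg and Gabpa. The order differed when only transcripts of at least 1000 nt were summed. Esrra stayed first in both ages, and was followed in young mice by Ppargc1a (17.4 FPKM), Nrf1 (16.7 FPKM) and Gabpa (16.7 FPKM) and in old mice by Gabpa (17.1 FPKM), Ppargc1a (16.8 FPKM) and Nrf1 (16.2 FPKM). Polg (11.4 FPKM in young and 10.7 FPKM in old mice) then lay below Gabpa, and Tfam (8.76 and 9.09 FPKM) lay below Tfb2m.

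The table lists 50 of 90 annotated transcripts of the 10 genes, and 34 reached the 0.1 FPKM filter and were tested. Of these 34 transcripts, 0 passed the threshold with limma, against 0.748% of the 38764 transcripts tested in all, and 2 had an unadjusted p below 0.05 (Esrra-201 and Nrf1-219), against 17% of all transcripts. The groups of these 2 transcripts did not overlap, as was so for 24.6% of all transcripts. The 21 transcripts with at least 10% of their gene and 0.5 FPKM in an age group are described above with their genes. Of the other 29, Ppargc1a-205 reached 3.71 FPKM and Nrf1-219 reached 2.81 FPKM, and the rest stayed at 2.57 FPKM or less. The shares of the most abundant transcript were compared for the 9 genes with more than 1 transcript, and the exact permutation p (two-sided) lay between 0.2 and 1.

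Genes with a pattern like that of Ppargc1a and Tfam were looked for among 14984 genes with a mean of at least 1 FPKM. For Ppargc1a the 3 genes with the highest Pearson correlation over the 6 samples were Gtf2b (r = 0.98), Ppp2r3d (0.97) and Rhog (0.97), and for Tfam they were Slc38a11 (0.99), 2310044K18Rik (0.98) and Dpm2 (0.98). The 6 points are the same libraries for every gene and the genes were picked for these values, which are given as a description with no test.

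The other genes of the pathway were taken from 4 lists of known members. Among 24 genes of mtDNA transcription and maintenance, 1 rose, 0 fell and 23 did not pass the threshold, a share below the 9.45% of all genes, and the median log2 difference was -0.06. The thymidine kinase of mitochondria, Tk2, rose from 18.9, 16.4 and 19.8 FPKM in the young samples to 25.5, 26.5 and 25.0 FPKM in old mice (log2 difference 0.49, SE 0.09, limma adjusted p = 0.0258). The mtDNA exonuclease gene Mgme1 was at 7.34 ± 0.773 FPKM in young and 4.92 ± 0.730 FPKM in old mice (log2 difference -0.57, SE 0.15, limma adjusted p = 0.0585). The count of 1 was 0 without young replicate 1 or 2 or any old replicate, 2 without young replicate 3, and 0 without a variance trend or with the replicate number as a block.

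Among 28 regulators and partners of PGC-1, 2 rose and 2 fell, where 5.65% of all genes tested were higher and 3.81% lower in old mice, and the median log2 difference was -0.13. Those that fell encode the catalytic subunits of AMPK, the energy sensor that activates PGC-1α. Prkaa1 fell from 17.7, 19.8 and 18.3 FPKM in the young samples to 13.8, 13.8 and 14.1 FPKM in old mice (log2 difference -0.41, SE 0.08, limma adjusted p = 0.0278), and Prkaa2 fell from 11.2, 12.2 and 11.4 FPKM to 8.39, 8.14 and 8.57 FPKM (log2 difference -0.47, SE 0.09, limma adjusted p = 0.0280). For both, the 3 old samples lay close together below all young samples. Mybbp1a, a repressor that binds PGC-1α, rose from 9.79, 9.34 and 9.02 FPKM to 12.1, 13.5 and 12.9 FPKM (log2 difference 0.45, SE 0.09, limma adjusted p = 0.0312). Perm1, a muscle regulator induced by PGC-1 and ERR, rose from 0.707, 0.539 and 0.886 FPKM to 1.41, 2.04 and 1.62 FPKM (log2 difference 1.15, SE 0.28, limma adjusted p = 0.0461). Summed over 10 skeletal muscle markers, the level was 1.77 to 3.79 FPKM in the young samples and 21.1, 5.61 and 4.47 FPKM in old replicates 1, 2 and 3, with 0 of the 9 markers tested past the threshold, and its part in the rise of Perm1 was not tested. Summed over 8 adipocyte markers, the level was 13.6 to 18.4 FPKM in young and 13.4 to 20.1 FPKM in old mice, and 0 of the 5 tested passed the threshold. Most of it came from Cidea (7.78 FPKM in young and 7.18 FPKM in old mice) and Lipe (7.73 and 8.87 FPKM), while Adipoq, Plin1 and Lep had means below 0.1 FPKM. The count of 4 in this list was 0 without young replicate 1 or 2 or any old replicate, 5 without young replicate 3, 0 without a variance trend and 1 with the replicate number as a block.

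**Figure D5:**
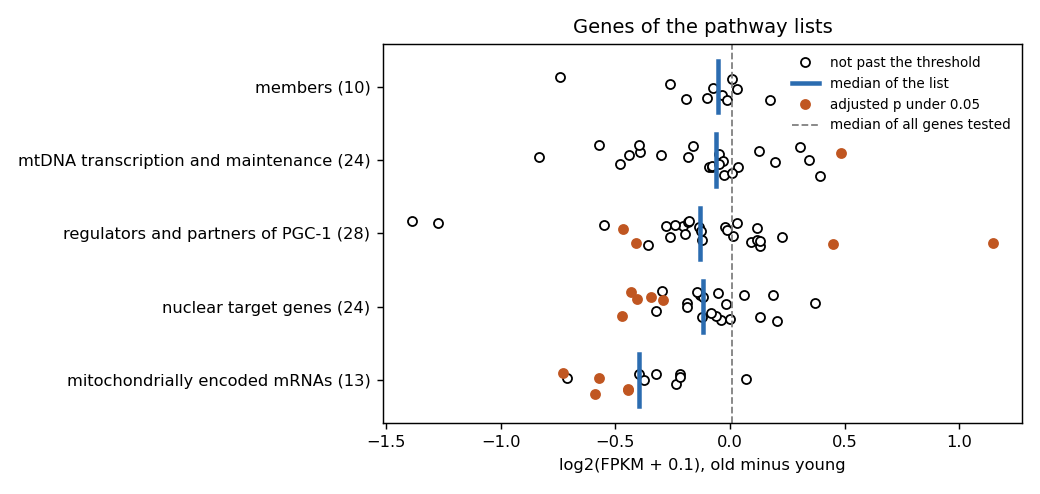
Log2 difference between old and young mice for the 10 genes and for the genes of 4 pathway lists (number of genes tested in brackets). Filled points passed the threshold with limma, blue bars are list medians and the dashed line is the median of all genes tested. The median of the mitochondrially encoded mRNAs, -0.40, lies farthest from that of all genes.

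Downstream of these factors, 24 nuclear target genes were compared, of which 0 rose, 5 fell and 19 did not pass the threshold, with a median log2 difference of -0.12. Those past the threshold were Idh3a of the citric acid cycle (57.8 ± 8.31 FPKM in young and 41.4 ± 1.73 FPKM in old mice, limma adjusted p = 0.0414), Cpt1b of fatty acid import (24.6, 27.5 and 24.2 FPKM in young and 18.2, 18.7 and 19.4 FPKM in old mice, 0.0259), and, outside the rule for named genes, cytochrome c (Cycs, 60.1 ± 2.11 and 45.4 ± 3.29 FPKM, 0.0244), Sod2 (59.0 ± 5.27 and 46.3 ± 1.25 FPKM, 0.0412) and the complex I subunit Ndufs1 (101.3 ± 7.17 and 82.4 ± 2.11 FPKM, 0.0429). The log2 differences of these 5 genes lay between -0.47 and -0.29. Of all genes tested, 3.81% passed the threshold and were lower in old mice. The count of 5 was 0 without young replicate 1 or 2 or old replicate 1 or 2, and 1 without old replicate 3, and it was 0 without a variance trend or with the replicate number as a block and 2 without the filter, while the median stayed between -0.18 and -0.08 over 16 alternatives.

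Of the 13 mRNAs encoded by mtDNA, which POLRMT, TFAM and TFB2M transcribe, 0 rose, 5 fell and 8 did not pass the threshold, with a median log2 difference of -0.40 and 12 of 13 below 0, beside 3.81% of all genes tested that passed and were lower. mt-Nd3 fell from 1070, 977 and 799.9 FPKM in the young samples to 642, 451 and 635 FPKM in old mice (log2 difference -0.73, SE 0.16, limma adjusted p = 0.0374). mt-Nd4 fell from 262, 232 and 256 FPKM to 195, 152 and 154 FPKM (log2 difference -0.59, SE 0.11, limma adjusted p = 0.0244). The others that fell, named here outside the rule, were mt-Nd1, mt-Nd2 and mt-Atp8, and mt-Co1 lay at the threshold, with 5776 ± 579.4 FPKM in young and 4378 ± 193 FPKM in old mice (limma adjusted p = 0.05003). The values of single mitochondrial genes are uncertain. mt-Co2, mt-Co3 and mt-Atp6 were listed at 1.44 to 4.24 FPKM while mt-Atp8, which overlaps mt-Atp6, was at 6258 to 9278 FPKM. Summed over the 13, the level was 17721 to 20021 FPKM in young and 13705 to 14072 FPKM in old mice, and the groups did not overlap. Most of this sum came from mt-Co1 and from mt-Atp8 (8885 ± 346 FPKM in young and 6535 ± 274 FPKM in old mice). Of all genes tested, 16.1% had groups that did not overlap and were lower in old mice. The count of 5 was 0 without young replicate 1, old replicate 2 or old replicate 3, 1 without young replicate 2 and 3 without old replicate 1, and it was 0 without a variance trend, 1 with the replicate number as a block and 2 without the filter, while the median stayed between -0.48 and -0.37 over 16 alternatives.

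The levels of cell type markers differed between the ages as well, and in bulk tissue fewer cells of a type and less RNA per cell cannot be told apart. The counts of markers below stand beside 5.65% of all genes tested that rose and 3.81% that fell. Of 8 markers of spiral ganglion neurons 6 fell, and their summed level was 538.7 to 1048 FPKM in young and 353 to 387 FPKM in old mice. Of 8 hair cell markers 3 fell, with sums of 119.8 to 209.7 FPKM in young and 69.4 to 92.8 FPKM in old mice, and of 8 supporting cell markers 1 rose, with sums of 3190 to 3738 and 3732 to 4004 FPKM. Of 10 macrophage markers 9 rose, with sums of 128 to 198 FPKM in young and 696 to 778 FPKM in old mice. Of 8 osteoblast markers 2 fell, and of 7 erythrocyte markers 0 passed the threshold. The part of these shifts in the lower AMPK subunit genes, nuclear target genes and mitochondrially encoded mRNAs was not tested.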

How the data were processed

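Cochlear tissue was analysed by RNA-sequencing in 3 young and 3 old samples. The authors made directional libraries, filtered the reads, mapped them to the GRCm38 genome and ran Cufflinks (v2.1.1) for assembly. The deposited FPKM per transcript were computed by the authors with Cuffdiff (v2.1.1). The submitters' processing notes also name TopHat2 (v2.0.9) and CASAVA (v1.8). The annotation release and the scaling between libraries are not given in the sources used here. Cuffdiff needs the reads, which were not used.

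Transcripts were assigned to genes with GENCODE M21, and 404 Ensembl transcripts found in no gene were left out of gene sums. Sums per gene, or single transcripts, with a mean of at least 0.1 FPKM were compared on log2(FPKM + 0.1) with limma 3.58.1 in R 4.3.3 (lmFit, eBayes with trend), two-sided, adjusted over all genes or transcripts tested. A log2 difference on this scale understates the change of low genes. The code was tested on simulated data. Fragments were estimated from FPKM steps with lengths reduced by 280 to 300 nt. Sums weighted by length used lengths reduced by 280 nt, with a minimum of 50 nt. Figures used Python 3.11.15 and matplotlib 3.10.9. No label says that samples came from separate litters or days, so that p-values measure the spread between these mixtures.

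The 10 genes and the lists were chosen with earlier results of these data known. Named genes are the 10 genes, their transcripts with at least 10% of the gene and 0.5 FPKM in an age group, and in each list those past the threshold, or the 2 largest rises and falls where more than 4 passed, or the 2 smallest p where fewer than 2 passed, and the 3 genes most like Ppargc1a and Tfam. Alternatives concerned pseudocount, filter, scaling, variance model, weights, replicate block, single samples and the combination of transcripts. Proteins and hearing tests of the study were not analysed here.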

Additional observations from a re-analysis of the deposited data

How the results depend on the processing

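Across the alternatives run, 0 of the 10 genes passed the threshold (Ppargc1b was not tested with the filter at 1 FPKM), and Esrra, Pprc1, Tfb2m and Polrmt were below 0 in each. Leaving out 1 sample gave log2 differences from 0.09 to 0.32 for Ppargc1a, -0.18 to 0.14 for Ppargc1b, -0.15 to 0.085 for Nrf1, -0.018 to 0.084 for Gabpa, -0.34 to 0.15 for Tfam and -0.10 to 0.18 for Polg, and 0 to 1 transcripts of the 10 genes past the threshold. The old minus young difference in the share of the main transcript ranged, over the same settings, from -31.0 to 4.55 percentage points for Pprc1, -1.36 to 2.54 for Nrf1, -11.8 to 8.05 for Tfam and -0.0442 to 0.0023 for Polrmt.

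With the transcript of the highest mean alone, the sign turned for Gabpa (-0.10), Tfam (0.10) and Polg (-0.089). With transcripts of at least 1000 nt it turned for Ppargc1a (-0.044), Tfam (0.046) and Polg (-0.089), and with sums weighted by length for Ppargc1a (-0.13), Gabpa (-0.038), Tfam (0.019) and Polg (-0.080). These sums differ from the sum of all transcripts in which transcripts enter or, in the last, in their weights. Both last sums were chosen after the values were seen.

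Past the threshold among all genes were 62 to 1771 with 1 sample left out, 1152 without a filter, 410 without a variance trend, 730 with a replicate block, 2917 with transcripts of at least 1000 nt and 3389 with weighted sums. The mtDNA list gave 0 to 2 with 1 sample left out, 2 where the filter was raised to 1 FPKM and with sample weights, and 0 without trend and with the replicate block. The regulators gave 0 to 5, 0 without trend and 1 with the block, the nuclear targets 0 to 5, 2 without a filter and 0 without trend and with the block, and the mitochondrial mRNAs 0 to 4, 2 without a filter, 0 without trend and 1 with the block. The causes were not tested. Replicate numbers share no known pairing (correlations of the deviations of same-numbered samples 0.023, -0.0406 and 0.0109), and in this balanced design the block leaves each log2 difference as it is and changes only its error. Scaling moved the median of all genes by less than 0.1 on the log2 scale. Among the genes followed, estimated fragments were fewest for Ppargc1b (33 to 60 per sample) and Pprc1 (70 to 136). The part of depth in their wide intervals was not tested. The SE of Pprc1 was 0.41 for all transcripts, 0.28 for those of at least 1000 nt and 0.23 for weighted sums.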
